A study of Oryza sativa Japonica Group with 8 samples.

Results

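The histone genes of rice, which encode the proteins that package nuclear DNA, were followed in leaves as plants dried. Protein-coding genes were taken as members when their deposited description named histone H1, H2A, H2B, H3 or H4 and no methyl, acetyl, deacetyl, demethyl or chaperone word. This gave 54 genes, all 54 in the total RNA values and 51 in the mRNA values, and those present in both tables, and averaging 1 FPKM or more over the 4 libraries of each kind, were measured. FPKM is the number of fragments scaled to transcript length and to the mapped fragments of the library. This left 37 measured histone genes among 18113 measured genes of the genome: 3 H1, 9 H2A, 12 H2B, 5 H3 and 8 H4 genes. The plants were Oryza sativa Japonica Group of the Ilmi variety, 5 weeks old and grown 3 plants per pot, and their leaves were taken either well watered or after 1, 2 or 3 days without water, which began at a soil water content of about 75%. Each of the 4 treatments was sequenced as 1 total RNA library and 1 mRNA library, 8 libraries in all. The labels do not say how many plants a library holds or whether both library kinds came from the same RNA. With 1 library in each group there is no replicate and no test: differences are described by a fixed size, at least 2-fold on the scale of FPKM + 1 in both library kinds, and likeness of the kinds may be technical.

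A nucleosome is a spool of the core histones H2A, H2B, H3 and H4 around which DNA is wrapped, and the linker histone H1 binds where the DNA enters and leaves it. Most core histone proteins are made while DNA is being copied, in dividing cells, whereas replacement variants such as H3.3 are also made and loaded outside replication, including in leaf cells that no longer divide. In Arabidopsis and tomato particular H1 variants are known to be drought-inducible, and in animals, unlike plants, replication-dependent histone mRNAs end without a poly(A) tail. Many histone genes of a class are nearly alike in sequence. The labels do not say how reads shared by such copies were assigned, so the split between members of a class is less certain than the level of the class.

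FPKM summed to 678548 to 755487 per library. If the smallest step in FPKM times length is 1 fragment, which is an assumption, the libraries held 16.3 to 24.6 M fragments. The median gene of all 18113 stood at a log2 ratio to the watered library of 0.23, 0.11 and -0.24 on days 1, 2 and 3 in total RNA and of 0.17, 0.06 and -0.39 in mRNA. The tissue was checked with 7 measured genes of photosynthetic leaf cells, fixed by their descriptions, of which none was at 0 in any library. Their summed level was 25631, 14889, 4933 and 303 FPKM in total RNA (watered, then days 1 to 3) and 19764, 12448, 3787 and 290 FPKM in mRNA, so the histone values stand beside far lower levels of leaf transcripts, whose part in them was not tested. In these bulk samples, fewer cells of a type and less RNA per cell cannot be told apart. The 5 measured seed genes, glutelins and a glutelin-maturing enzyme, summed to 27.9 to 56.2 FPKM in total RNA and 42.0 to 125 FPKM in mRNA, highest on day 3 in both kinds. That peak was carried by 1 glutelin gene, Os03g0188500, and without it the other 4 summed to 27.6 FPKM watered and 28.8 FPKM on the third day in total RNA, and to 41 and 32.9 FPKM in mRNA.

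On days 2 and 3 many histone genes were lower than in watered leaves, and the classes parted. On day 3 all 3 H1 genes were far lower, 5 of 9 H2A, 5 of 12 H2B and 4 of 8 H4 genes were lower by the size rule, and no H3 gene passed it on any day. On day 1, 1 of 37 members was higher and 2 were lower, where 6.93% of all measured genes were higher and 2.46% lower. On day 2, 1 was higher and 13 were lower, against 14.5% and 11.1% of all genes. On day 3, 2 were higher and 17 were lower, which is 5.41% and 45.9% of members, against 18.2% and 25.9% of all genes. Among these, the higher gene Os09g0570850 passed the filter only through day 3. The lower gene Os03g0144700 passed it only through its watered libraries, so neither call is independent of the filter. From day 1 to day 3 the members' median log2 ratio in total RNA was -0.18, -0.59 and -1.03, and their mRNA medians were -0.06, -0.65 and -1.27. On day 3 the members' median minus that of all genes was -0.78 in total RNA and -0.89 in mRNA. Under median-ratio scaling, which moves the median of all genes on day 3 to 0.09 and 0.12, these differences were -0.89 and -0.88. They were smaller with a pseudocount of 5 (-0.46 and -0.60) and with no filter (-0.49 and -0.58). Under a filter at a mean of 5 FPKM they were larger, at -1.22 and -1.25. Of the 17 genes lower on day 3, 11 were already lower on day 2, and 6 were lower on day 3 only. The genes lower on day 2 only were 2, Os08g0427700 (H2A) and Os10g0539500 (H4).

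**Figure D1:**
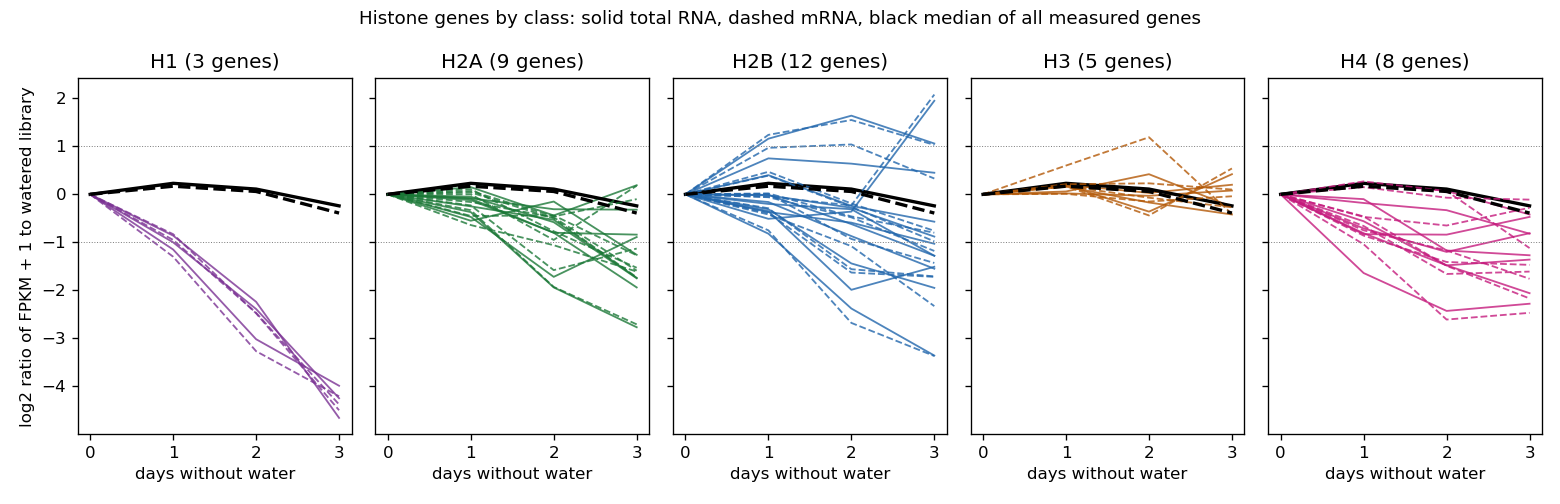
Log2 ratio of FPKM + 1 to the watered library of the same kind (vertical axis) against days without water (horizontal axis), 1 line per measured histone gene and library kind (solid total RNA, dashed mRNA), 1 panel per class. Black lines are the median of all 18113 measured genes and dotted lines mark 2-fold. The 3 H1 genes run together to between -3.99 and -4.66, 4 of the 5 H3 genes stay within the 2-fold lines (the low gene Os06g0159725 reaches 1.19 in mRNA on day 2), and the H2B panel spans from -3.37 to 2.08.

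The linker histone genes had the largest and most even difference of the 5 classes. Os04g0253000, described as similar to histone H1 and the most abundant of the 3 (chromosome 4, 9993501 to 9994503, IRGSP-1.0), had total RNA values of 975, 439, 119 and 60.3 FPKM from watered to day 3. Its mRNA values were 998, 405, 103 and 53 FPKM. Each library was below the one of the day before, and the kinds were close at every time. The log2 ratio on day 1 was already -1.15 in total RNA and -1.30 in mRNA, so this was 1 of the 2 histone genes lower on the first day (-0.83 by the smaller value under the deposited quantile normalization). On day 3 FPKM + 1 was 15.9-fold lower in total RNA and 18.5-fold lower in mRNA. Its rank among the 18113 genes by FPKM in total RNA went from 76 when watered to 2111 on day 3.

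Os03g0799000, also similar to histone H1 (chromosome 3, 33304497 to 33305962), had total RNA values of 206, 102, 38.5 and 9.88 FPKM and mRNA values of 223, 114, 39.3 and 9.75 FPKM. Os07g0184800, described as similar to a variant of histone H1 (chromosome 7, 4483447 to 4484756), had total RNA values of 103, 56.7, 21.1 and 3.12 FPKM and mRNA values of 137, 76.7, 23.7 and 5.10 FPKM. Both were thus lower at every step in both kinds, and missed the size rule on day 1 with ratios of -1.0 and -0.95 for the first and -0.86 and -0.83 for the second. On day 3 they were 19.0-fold and 20.8-fold lower for Os03g0799000, and 25.3-fold and 22.6-fold lower for Os07g0184800, in total RNA and mRNA. By the smaller of the 2 ratios on day 3, the 3 H1 genes were among the lowest 1.07% to 1.63% of all measured genes. The class median step grew from -1.0 (watered to day 1) to -1.38 (day 1 to 2) and -1.86 (day 2 to 3) in total RNA, and was -0.95, -1.65 and -1.91 in mRNA. No H1 gene was higher in any dried library. The fourth described H1 gene, Os07g0184850, lies inside the span of Os07g0184800 and did not exceed 0.629 FPKM in any library.

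**Figure D2:**
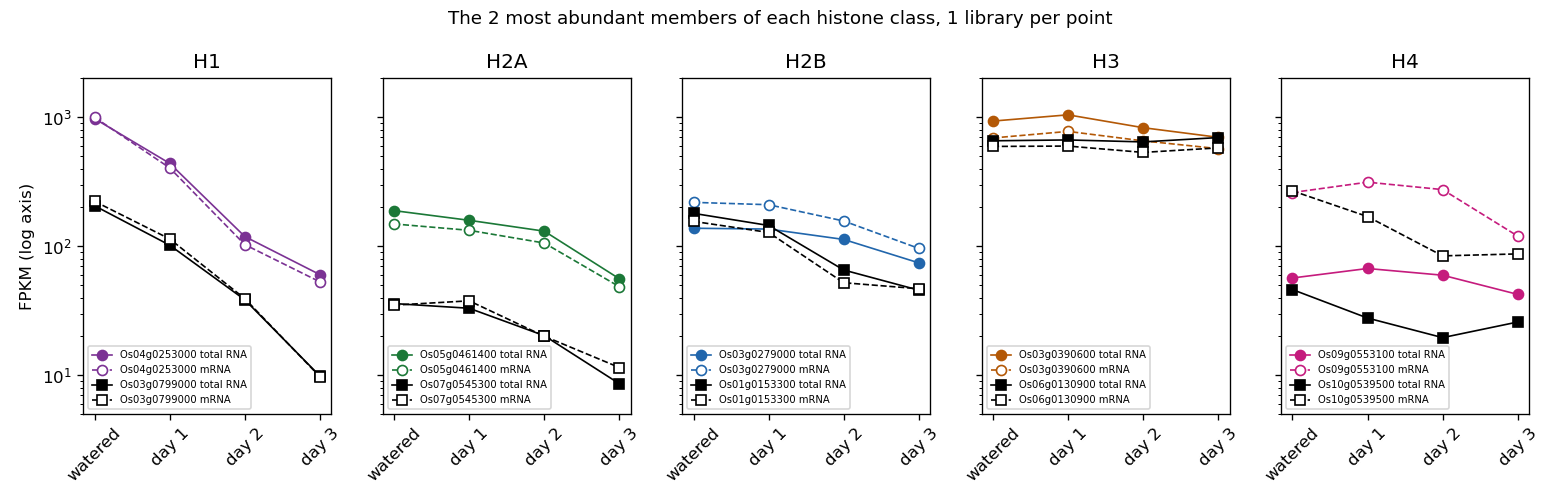
FPKM on a log axis in each of the 8 libraries for the 2 members of each class with the highest mean, 1 point per library (filled total RNA, open mRNA). H1 genes drop at each time point, the H3 pair stays between 534 and 1044 FPKM, and the H4 pair lies far higher in mRNA than in total RNA.

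The H2A genes, whose product pairs with H2B in the nucleosome, were lower late. None was lower by the size rule on day 1, 2 of 9 were on day 2 and 5 of 9 on day 3. That is 0%, 22.2% and 55.6%, against 2.46%, 11.1% and 25.9% of all measured genes. None was higher, against 6.93%, 14.5% and 18.2% of all genes, and the class medians on day 3 were -1.26 and -1.53. Os05g0461400 (chromosome 5, 22656839 to 22658009) was the main H2A gene of these leaves and had total RNA values of 189, 159, 131 and 56.0 FPKM and mRNA values of 149, 133, 106 and 48.6 FPKM. Most of its difference came between days 2 and 3, and the log2 ratio on day 3 was -1.74 and -1.59. Os07g0545300 had total RNA values of 36.0, 33.1, 20.3 and 8.61 FPKM and mRNA values of 35.0, 37.8, 20.1 and 11.5 FPKM, and was lower on day 3 (-1.94 and -1.53) though not under median-ratio scaling, which left it just short of 2-fold by the smaller value. Os03g0279200 had the lowest ratio of the class. It had total RNA values of 34.2, 26.2, 8.15 and 4.17 FPKM and mRNA values of 34, 26.8, 8.19 and 4.35 FPKM, with log2 ratios of -2.77 and -2.71 on day 3.

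The other 6 H2A genes did not exceed 9.81 FPKM. Os08g0427700 was lowest on day 2, at 1.55 FPKM in total RNA and 2.61 in mRNA, and stood at 3.54 and 3.93 FPKM on day 3, and its day 2 call was lost with a pseudocount of 5. Os03g0721900 was listed at 0 in total RNA on day 3 and at 0.293 FPKM in mRNA, from 2.36 and 3.28 FPKM when watered. Os03g0144700 was the other low gene that was called lower on day 3 (-1.26 and -1.61), and it passed the filter only through its watered libraries. Both of these calls were lost with a pseudocount of 5 FPKM. Os12g0438000 and Os12g0530000 differed little on day 3, with ratios of -0.32 and -0.10 for the first and of 0.19 and 0.18 for the second. Os01g0502700, the member nearest the filter at a mean of 1.1 and 1.05 FPKM, had ratios of -0.84 and -1.27, and would be below the filter without its watered or its day 1 libraries. Just outside the filter was the H4 gene Os05g0462700, at a mean of 0.829 FPKM in total RNA and 2.73 in mRNA.

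The H2B genes, the largest class, had the widest range of day 3 ratios. Its upper end is a gene that passed the filter only through day 3. On that day 5 of 12 were lower and 2 were higher, the only histone genes called higher on any day. That is 41.7% lower and 16.7% higher, against 25.9% and 18.2% of all measured genes. Highest by its mean over the 8 libraries was Os03g0279000 (chromosome 3, 9492827 to 9493512), with total RNA values of 138, 136, 113 and 74.4 FPKM and mRNA values of 219, 210, 157 and 96.3 FPKM. Its level was close to watered on day 1 and lowest on day 3, with ratios of -0.88 and -1.18 that missed the rule in total RNA. Os01g0153300 had total RNA values of 180, 145, 65.5 and 45.7 FPKM and mRNA values of 156, 128, 52.2 and 46.9 FPKM, and was lower on day 2 (-1.44 and -1.56) and on day 3 (-1.95 and -1.71). Os05g0574300 had the lowest ratio outside H1. It had total RNA values of 81.4, 45.6, 14.8 and 7.05 FPKM and mRNA values of 74.5, 43.9, 10.8 and 6.28 FPKM, and FPKM + 1 was 10.2-fold and 10.4-fold lower on day 3.

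Os01g0149600, described as an H2B gene (chromosome 1, 2686486 to 2687266), went the other way. Its total RNA values were 12.5 FPKM watered and 29.2, 40.9 and 27.1 FPKM in the dried leaves, and its mRNA values were 20.3, 49.3, 61.4 and 42.5 FPKM. It was the one histone gene higher on day 1, by log2 ratios of 1.16 and 1.24, and on day 2, by 1.64 and 1.55. Its highest level was on day 2 in both kinds, and on day 3 it was still higher, by 1.06 and 1.03. The day 1 call was lost with a pseudocount of 5 (0.97) and under median-ratio scaling (0.93). The day 3 call was lost with a pseudocount of 5 (0.88), under the deposited quantile normalization (0.91) and with the 10 most abundant genes left out of the total (0.92). Os09g0570850 (chromosome 9, 22792228 to 22792931) was higher on day 3 only. It had total RNA values of 1.2, 0.55, 0.718 and 7.49 FPKM and mRNA values of 0.582, 0.53, 0.348 and 5.7 FPKM, and passed the filter only through day 3, so it could be kept only by being high there. Under the assumption of 1 fragment per step, the exact 95% Poisson limits in total RNA were 0.597 to 2.29 FPKM when watered and 5.82 to 9.40 FPKM on day 3, which cover counting error only. Its call was lost with a pseudocount of 5 (0.94).

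Of the other 7 H2B genes, Os01g0153100, Os01g0502900 and Os08g0490900 were lower on day 3, by ratios of -1.28 to -1.55 in total RNA and of -1.43 to -2.33 in mRNA. The first of these calls was lost under median-ratio scaling, the second with a pseudocount of 5 and under quantile normalization, and the third with a pseudocount of 5. Os01g0152700 and Os01g0152900 passed 2-fold in total RNA alone on day 3 (-1.03 and -1.28) and stood at -0.80 and -0.98 in mRNA. Os01g0152300 had ratios of -0.57 and -0.76. Os05g0460475 was above its watered level on all 3 days in both kinds without passing the rule, and its ratio was 0.97 at most in mRNA on day 1 and 1.04 on day 2, against 0.75 and 0.64 in total RNA. It stood at 1.37 to 4.73 FPKM across the 8 libraries.

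H3 was the only 1 of the 5 classes in which no gene passed the size rule on any day (0 of 5). On day 3, 25.9% of all measured genes were lower and 18.2% higher, so a count of 0 among 5 genes says little alone. Os03g0390600, whose main transcript is described as similar to H3.3, the replacement form (chromosome 3, 15645609 to 15648151), had total RNA values of 934, 1044, 830 and 699 FPKM and mRNA values of 691, 777, 656 and 571 FPKM. Its day 3 ratios were -0.42 and -0.27. Summed over its transcripts it was the most abundant histone gene on day 3 in total RNA, just above Os06g0130900 (696 FPKM). That sum includes 29.2 FPKM of a noncoding transcript, and the H3.3 transcript alone stood at 652 FPKM. In mRNA on day 3 Os06g0130900 was the higher, at 579 against 571 FPKM. Os06g0130900 (chromosome 6, 1645434 to 1646322) was nearly level, with total RNA values of 657, 667, 644 and 696 FPKM and mRNA values of 594, 598, 534 and 579 FPKM. Os04g0450800 had total RNA values of 112, 130, 115 and 129 FPKM and mRNA values of 116, 134, 136 and 124 FPKM, again within a narrow range. Os01g0866200, a minor gene, had the highest day 3 ratio of the class (0.42 and 0.54), with total RNA values of 9.91, 11.4, 7.51 and 13.6 FPKM and mRNA values of 8.63, 9.81, 6.07 and 13 FPKM. The low gene Os06g0159725, which lies inside the span of another H3 gene, stood at 0.317 to 3.09 FPKM and passed the filter only through day 2. Its day 2 ratio was 1.19 in mRNA, past 2-fold in that kind alone, and 0.42 in total RNA.

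The class median of H3 on day 3 was 0.08 in total RNA and -0.04 in mRNA, and its sign was set by the scaling. It was 0.45 and 0.53 under median-ratio scaling, 0.10 and -0.19 under the deposited quantile normalization, and -0.06 and -0.09 with the 10 most abundant genes left out of the total. The H3 median was not below the median of all genes under these scalings, except in mRNA under quantile normalization, where all genes stood at -0.10.

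The third deposited transcript of Os03g0390600 is listed as noncoding, with a length of 307 bases. It moved apart from the coding form: 74.0, 92.1, 12.2 and 29.2 FPKM in total RNA, and 1.71 to 2.60 FPKM in the 4 mRNA libraries. The H3.3 transcript itself had total RNA values of 842, 930, 800 and 652 FPKM and mRNA values of 680, 760, 646 and 561 FPKM. The reads of overlapping transcripts of 1 gene are split by the authors' estimate, so the short form is the less certain one.

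The H4 genes reached most of their difference by day 2. By the size rule 1 of 8 was lower on the first day, 5 on the second and 4 on the third. That is 12.5%, 62.5% and 50%, against 2.46%, 11.1% and 25.9% of all measured genes. The class median step from day 2 to day 3 was 0.01 in total RNA and -0.04 in mRNA, against -0.35 and -0.46 over all genes. Os09g0553100 (chromosome 9, 21912086 to 21912668) had total RNA values of 56.8, 67.3, 59.7 and 42.4 FPKM and mRNA values of 261, 314, 275 and 120 FPKM, and was below its watered level on day 3 only (-0.42 and -1.12). Os10g0539500 (chromosome 10, 21019357 to 21019902) had total RNA values of 46.2, 27.8, 19.6 and 25.9 FPKM and mRNA values of 269, 170, 84.3 and 87.3 FPKM, lowest on day 2 in both kinds. Os07g0549900 was, with the H1 gene Os04g0253000, the histone gene lower on all 3 days. It had total RNA values of 18.3, 5.20, 2.57 and 2.96 FPKM and mRNA values of 42.6, 20.2, 6.12 and 6.85 FPKM, and its day 1 ratios were -1.64 and -1.04 (-0.91 by the smaller value with a pseudocount of 5).

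Os01g0835900 was lower at each step in both kinds, from 49.9 to 11.2 FPKM in total RNA and from 80.2 to 17.0 FPKM in mRNA, with day 3 ratios of -2.06 and -2.17. Os09g0433600 and Os02g0684500, at 9.25 FPKM or less, were lower on days 2 and 3, and both lost these calls with a pseudocount of 5. The day 3 call of Os09g0433600 was also lost under the deposited quantile normalization (-0.92). Os05g0466600 and Os03g0119900 passed the rule on no day. The first went from 17.5 to 9.43 FPKM between watered and day 3 in total RNA but from 36.4 to 33.7 FPKM in mRNA, so the kinds differed for it.

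**Figure D3:**
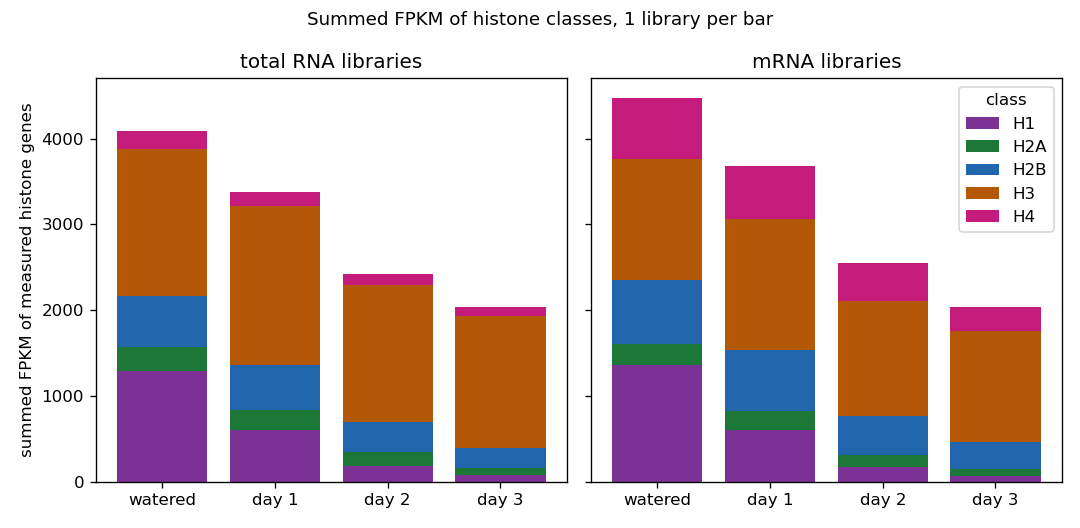
Summed FPKM of the measured histone genes (vertical axis, from 0) in each library, stacked by class, with total RNA on the left and mRNA on the right. The sum is 2032 FPKM on day 3 in both kinds, and the H3 block keeps nearly its watered height while the H1 block shrinks from 1284 to 73.3 FPKM in total RNA.

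Because the classes parted, the make-up of histone transcripts differed between watered and dry leaves. Summed over the 37 genes, histone FPKM in the total RNA libraries was 4093, 3376, 2417 and 2032, and the mRNA sums were 4479, 3684, 2545 and 2032. The H1 sum was 1284, 597, 179 and 73.3 FPKM in total RNA and 1358, 596, 166 and 67.9 FPKM in mRNA, which is 17.5-fold and 20-fold lower on day 3. H1 thus went from 31.4% to 3.61% of histone FPKM in total RNA and from 30.3% to 3.34% in mRNA. The H3 sum was 1716, 1854, 1600 and 1539 FPKM in total RNA and 1411, 1521, 1336 and 1287 FPKM in mRNA. H3 went from 41.9% to 75.7% of histone FPKM in total RNA and from 31.5% to 63.3% in mRNA, with nearly all of it in 2 genes (92% and 90%).

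The 3 other classes lay between these ends. The H2A sum went from 281 to 80.9 FPKM in total RNA and from 246 to 80.0 FPKM in mRNA. H2B went from 599 to 233 FPKM and from 743 to 316 FPKM. H4 went from 214 to 105 FPKM and from 720 to 282 FPKM. These sums of 3.47-fold, 2.57-fold and 2.03-fold lower in total RNA, and of 3.08-fold, 2.35-fold and 2.56-fold lower in mRNA, are ratios of plain FPKM. Sums within 1 library are free of its scaling when given as shares, but they say nothing of the amount of histone protein.

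Over time, 11 of 37 members were lower at every step in both kinds: all 3 H1 genes, 2 of 9 H2A, 4 of 12 H2B, 0 of 5 H3 and 2 of 8 H4 genes. The lowest library was day 3 for 24 members in total RNA and for 25 in mRNA. Another 8 members stood higher on day 3 than on day 2 in both kinds. These shapes were not counted over all genes, so the counts have no share to stand against. The median of all genes was also lower at the later steps, by -0.11 in both kinds from day 1 to day 2. From day 2 to day 3 it was -0.35 in total RNA and -0.46 in mRNA. The kinds gave different signs on day 3 for 1 member, Os06g0130900, at 0.08 and -0.04. Across the 37 members the ratios of the kinds correlated with Pearson's r of 0.892, 0.955 and 0.972 on days 1, 2 and 3, against 0.916, 0.968 and 0.973 over all genes. This is a description across genes, and each ratio of a kind shares its watered library.

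**Figure D4:**
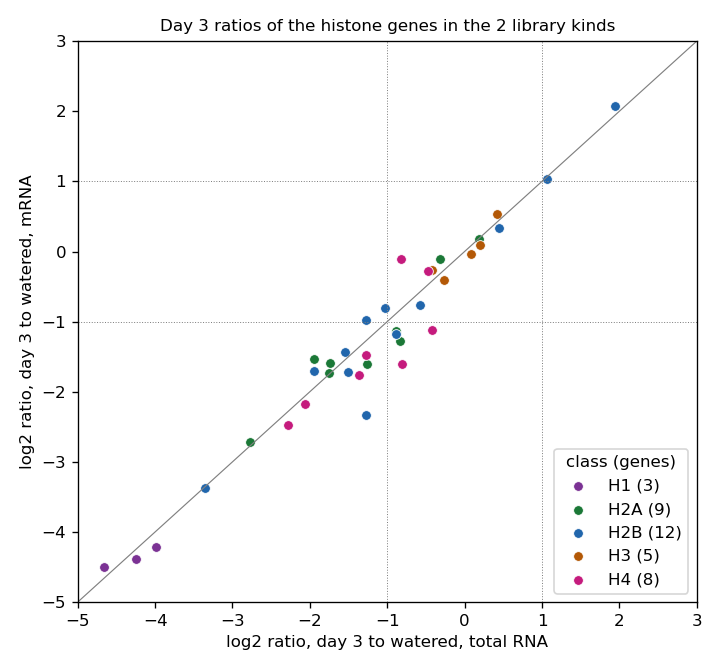
Log2 ratio of FPKM + 1, day 3 to watered, in total RNA (horizontal axis) and in mRNA (vertical axis), 1 point per measured histone gene, coloured by class. The line marks equal ratios and dotted lines mark 2-fold. H1 points lie at the lower left, H3 points between -0.42 and 0.54, and 2 H2B points at the upper right.

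Total RNA libraries keep RNA with and without a poly(A) tail, and mRNA libraries are made from RNA with one. No histone gene was at least 2-fold higher in total RNA in all 4 treatments, as were 0.315% of all measured genes. In the other direction 4 of 37 (10.8%) were at least 2-fold higher in mRNA in all 4 treatments, against 4.05% of all genes and 5.53% of the 3090 measured protein-coding genes of at most 900 bases. These were the H4 genes Os10g0539500, Os09g0553100 and Os05g0466600 and the H2B gene Os01g0152300, with FPKM + 1 in watered leaves 5.72-fold, 4.53-fold, 2.03-fold and 3.95-fold higher in mRNA. Os01g0152300 had total RNA values of 4.06, 5.65, 3.27 and 2.42 FPKM and mRNA values of 19.0, 26.7, 16.5 and 10.8 FPKM.

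The median log2 ratio of total RNA to mRNA over the members was -0.34, -0.40, -0.27 and -0.32 (watered, then days 1 to 3), where all genes stood at -0.14, -0.12, -0.08 and -0.05. It was lowest for H4, at -0.85, -1.06, -0.85 and -0.78. For H3 it was above 0, at 0.18, 0.20, 0.27 and 0.27. H1 lay near 0, at -0.11, -0.16, -0.03 and 0.02. Both tables were scaled separately by the authors, so a level set across them depends on that scaling.

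**Figure D5:**
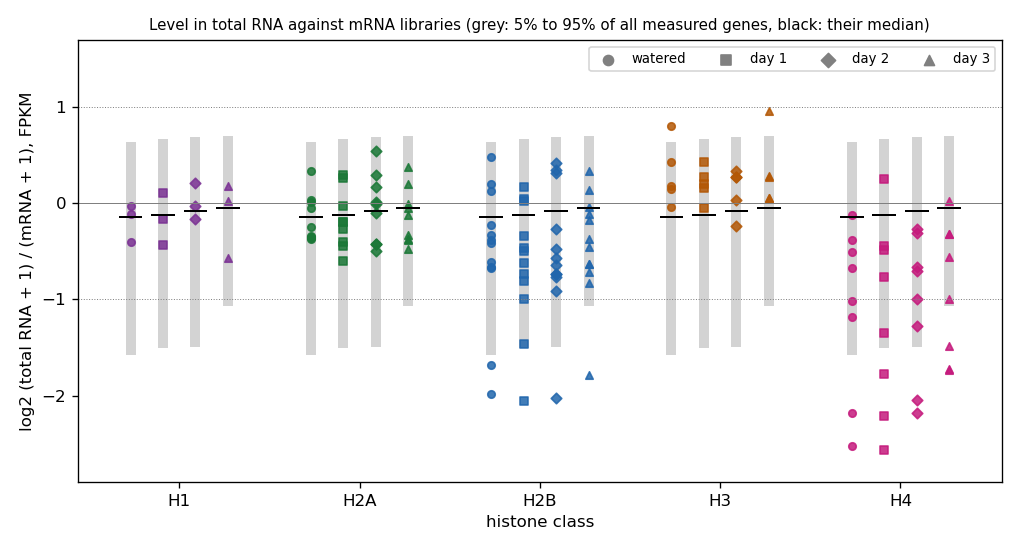
Log2 of (total RNA FPKM + 1) over (mRNA FPKM + 1) on the vertical axis for each measured histone gene, by class and treatment (marker shape). Grey bars span 5% to 95% of all 18113 measured genes in that treatment and black ticks their median. The lowest points are H4 genes and 1 H2B gene, down to -2.57.

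Several members are neighbours, taken as histone genes with a gap of at most 50 kb. The H2B genes Os01g0152300, Os01g0152700, Os01g0152900, Os01g0153100 and Os01g0153300 lie in a row on chromosome 1, from 2820074 to 2872826, with gaps of 17147, 6331, 12169 and 13986 bases. All of them were below watered on day 3 in both kinds, by differing amounts. The day 3 ratios in total RNA were -0.57, -1.03, -1.28, -1.55 and -1.95 in that order. In mRNA they were -0.76, -0.80, -0.98, -1.43 and -1.71. Os01g0149600, the H2B gene that was higher, lies outside this row on the same chromosome. The H2B gene Os03g0279000 and the H2A gene Os03g0279200 lie 5460 bases apart, and the H2A gene was far lower on day 3 (-2.77 against -0.88 in total RNA). In total RNA on day 3 the pair Os05g0461400 (H2A) and Os05g0460475 (H2B), 31223 bases apart, had opposite signs, at -1.74 and 0.45. The H2B gene of this pair is low, at 1.37 FPKM watered and 2.23 FPKM on day 3. Under the assumption of 1 fragment per step, its 95% Poisson limits overlap, at 0.614 to 2.8 and 1.26 to 3.71 FPKM. Its sign is therefore uncertain. The pair Os01g0502700 (H2A) and Os01g0502900 (H2B), 4349 bases apart, had the same sign in total RNA, at -0.84 and -1.28. The first of these would be below the filter without its watered or its day 1 libraries. On day 3, 30 of 37 members and 9973 of 18113 measured genes were below watered in both kinds. A shared sign, here or in the row on chromosome 1, thus says little about neighbours.

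The 14 members in both tables that were below the filter, and the 3 only in the total RNA values, did not exceed 3.97 FPKM in any library. Among them was the centromeric histone H3 gene Os05g0489800, whose product marks the centromere, at 0.697 to 0.903 FPKM in total RNA and 0.686 to 0.986 FPKM in mRNA. The H3 gene Os05g0438700 stood at 1.44 and 1.47 FPKM on day 3, from 0.404 and 0.258 FPKM when watered. The H2A genes Os05g0113900, Os10g0418000, Os03g0162200 and Os01g0974600, the H3 genes Os02g0542100, Os06g0159450, Os11g0155900, Os04g0419600 and Os06g0160001, and the H4 gene Os04g0583600 were at 2.24 FPKM or less. In total RNA alone were Os06g0250300, Os08g0289266 and Os06g0159700, at 0.340 FPKM or less.

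Genes of DNA replication and the cell cycle, with which core histones are made in dividing cells, were compared through a list set by description words. On day 3, 5 of 24 measured genes (56 described) were lower and 3 higher, with medians of -0.12 and -0.41, and none was called on days 1 or 2. That is 20.8% lower and 12.5% higher, against 25.9% and 18.2% of all measured genes. PCNA, the sliding clamp of DNA polymerase (Os02g0805200), had total RNA values of 18.6, 20.2, 12.9 and 4.05 FPKM and mRNA values of 13.6, 13.4, 8.10 and 3.05 FPKM. It was lower by the size rule on day 3 only. The 3 higher genes were Os02g0776800, Os03g0152100 and Os01g0508100. Os02g0776800 encodes a subunit of replication protein A, which binds single-stranded DNA, and had total RNA values of 5.77, 12, 18 and 21.5 FPKM and mRNA values of 5.79, 9.1, 10.9 and 18 FPKM. Os03g0152100, similar to an E2F-DP transcription factor, had day 3 ratios of 1.33 and 1.11. Os01g0508100 is described as a ferritin and ribonucleotide reductase-like protein, and the words may take in genes of other function. It was below 1 FPKM in every library except those of day 3, at 16.6 FPKM in total RNA and 15.2 in mRNA. It therefore passed the filter only through day 3, and its call is not independent of the filter. The described genes outside the 24 were below the filter or in 1 table only.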

How the data were processed

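Strand-specific libraries of total RNA and of mRNA were made from leaf RNA, per the labels' protocols. Per the submitters' processing notes, the tools were StringTie 1.3.3b, HISAT2 2.0.5 and Bowtie2 2.2.6, beside Trimmomatic 0.32 and FastQC 0.10.0, and the build was IRGSP-1.0. What each did, and any use of strand, is not stated. The authors deposited FPKM per transcript and library, 1 table per kind, per the file headers. The deposited log2 columns are, from their values, log2(FPKM + 1) after quantile normalization within a table.

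Here FPKM was summed per gene, and log2 ratios of FPKM + 1 to the watered library of the same table were taken, which understates differences of low genes. A size rule of 2-fold in both kinds replaced a test, since each group holds 1 library. Members and lists were chosen with earlier results of these data known. All members are named, with values in every library for the 2 most abundant of each class, those called higher, or lower on day 1, the 3 lowest and highest on day 3, and those with diverging transcripts. Others were added after their values were seen. Alternatives were pseudocounts of 0.1 and 5, other filters, scalings, transcripts and sizes, each kind alone, and protein-coding transcripts only, added after seeing the data. Protein and promoter sequences were not used here. Python 3.11.15, pandas 2.3.3 and numpy 2.4.6 were used.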

Additional observations from a re-analysis of the deposited data

How the results depend on the processing

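Of 444 recomputed counts and medians, 413 stayed within 1.5 times the reported count or within the spread between library kinds (0.291, 0.314 and 0.435 on days 1, 2 and 3, log2), and 31 moved. A median was counted as reversed only if its reported size was at least that spread, and 0 were. Smaller medians did change sign. The H3 median in total RNA on day 1, for example, went from 0.16 to -0.08 under median-ratio scaling. Among the measured members only Os03g0390600 and Os04g0450800 have several deposited transcripts. The alternatives that change transcripts therefore left nearly all counts and medians as reported. The share of 413 in 444 thus understates how much these results depend on scaling, filter and pseudocount. Of 421 recomputed calls of single members, 22 were lost. Losses came only with a pseudocount of 5, under median-ratio scaling or quantile normalization, or with the 10 most abundant genes left out. The other alternatives could not lose a call: they left its ratio unchanged, enlarged it or used a looser rule. The share lost of all 421 therefore understates how much the calls depend on scaling and pseudocount. Higher genes on day 1 numbered 2 with a pseudocount of 0.1 or at 1.5-fold, and 0 with a pseudocount of 5 or under median-ratio scaling. Lower genes on day 1 numbered 1 with a pseudocount of 5, 4 under both median-ratio and quantile scaling, and 7 at 1.5-fold. Higher genes on day 2 numbered 3 in mRNA alone and 2 at 1.5-fold. Higher genes on day 3 numbered 0 with a pseudocount of 5, and 1 under a filter at a mean of 5 FPKM, under quantile normalization or with the 10 most abundant genes left out. Lower genes on day 3 numbered 11 with a pseudocount of 5 and 11 under the filter at 5 FPKM, which keeps 23 members. A pseudocount of 5 put the H4 median on day 2 at -0.64 in total RNA and -0.74 in mRNA, and on day 3 put H2A at -0.54 and -0.65 and H4 in mRNA at -0.99. The H2A median in total RNA on day 3 was -1.75 with a pseudocount of 0.1 and -1.94 under the filter at 5 FPKM. All members in mRNA on day 3 stood at -0.76 with no filter and at -0.76 under median-ratio scaling. That scaling also put H2A in total RNA on day 1 at -0.42, and on day 3 in mRNA put H1 at -3.85, H2A at -1.02, H2B at -0.53, H3 at 0.53 and H4 at -1.04. The cause was not tested. No paired analysis was possible because each group holds 1 library. Depth limits the members at a few FPKM most.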

Other observations

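Other chromatin proteins were compared through lists set by description words. In the list of high mobility group proteins, 2 of 5 measured genes (7 described) were lower on day 3 and 0 higher. That is 40% lower, against 25.9% of all measured genes lower and 18.2% higher. The DNA-bending protein gene HMGB1 (Os06g0728000) was above every histone gene when watered, with total RNA values of 1562, 818, 509 and 254 FPKM from watered to day 3 and mRNA values of 1739, 978, 504 and 278 FPKM. It was lower at each step in both kinds. Os09g0551600, described as similar to HMGd1 and counted with the chaperones by its wording, had total RNA values of 46.8, 22.4, 14.2 and 9.6 FPKM and mRNA values of 66.8, 35.9, 18.4 and 12.4 FPKM. The other lower gene of the first list, Os06g0274200, is described as a subunit of a small nucleolar RNA complex, so the list's words reach beyond chromatin.

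Of 12 measured histone chaperone and nucleosome assembly genes (16 described), 3 were lower and 1 was higher on day 3. That is 25% lower and 8.33% higher, close to and below the shares of all measured genes, 25.9% and 18.2%. Os04g0459700, a nucleosome assembly protein, had total RNA values of 14.5, 15.4, 7.97 and 2.23 FPKM. Os05g0182600, similar to the FACT complex subunit SSRP1 that moves histones during transcription, was the higher one, with total RNA values of 4.94, 5.59, 4.86 and 14.5 FPKM and mRNA values of 6.25, 6.62, 5.84 and 16.9 FPKM. The list of histone modifying enzymes held 61 measured genes (68 described). Of these, 16 were lower and 7 higher on day 3, with medians of -0.27 and -0.53. That is 26.2% lower and 11.5% higher, against 25.9% and 18.2% of all measured genes. The higher gene Os01g0976450 was below 1 FPKM in total RNA except on day 3 (3.82 FPKM), so it passed the filter only through day 3. This list's words may also take in genes of other function. The description of the lower gene Os02g0725200 (-2.58 and -2.88) also names ribulose-1,5-bisphosphate carboxylase/oxygenase. Os02g0215200, described as a class-I type histone deacetylase, which removes acetyl groups from histones, had total RNA values of 1.15, 4.4, 12.5 and 19.6 FPKM and mRNA values of 0.554, 3.96, 10.7 and 17.4 FPKM. Os10g0577600, similar to a jumonji domain protein, a family that includes histone demethylases, had total RNA values of 3.09, 5.46, 13 and 61.9 FPKM and mRNA values of 2.8, 3.91, 8.88 and 55.1 FPKM. Both were higher in every dried library than when watered. Os12g0182700, of the histone deacetylase superfamily, went from 47.6 to 3.17 FPKM in total RNA and from 53.8 to 2.97 FPKM in mRNA. These genes were chosen after their values were seen.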
